A study of Mus musculus with 12 samples.

Results

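The heat shock proteins and the DnaJ (J-domain) cochaperones were followed through the trigeminal ganglia of mice that had or had not responded to PACAP. The members were all genes of the deposited table whose mouse symbol, matched from the Ensembl identifier, begins with Hsp or Dnaj, with Hspg2 left out because it encodes the matrix proteoglycan perlecan. This rule gave 89 of 51341 genes. They comprised 3 Hsp90 genes, 14 of the Hsp70 and Hsp110 family, 8 small heat shock proteins, 2 chaperonins, 2 Hsp-binding proteins, 4 Dnaja, 13 Dnajb and 28 Dnajc genes and 15 annotated pseudogene copies.

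The ganglia came from CD1 mice, an outbred stock, and hold the sensory neurons of the face and meninges with their glia. PACAP is a neuropeptide, and the title of the series names light aversion as the behaviour it brings about. There were 6 responders and 6 nonresponders, each with 3 males and 3 females, and no other genotype, agent or dose is named in the labels. The sources used here do not give the scoring of the response, the age of the mice or the time from PACAP to dissection.

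Chaperones bind unfolded or partly folded proteins and keep them from aggregating. Hsp70 proteins do so in cycles of ATP binding and hydrolysis that J-domain proteins start and nucleotide exchange factors end, and many clients pass on to Hsp90 or to the barrel-shaped chaperonins. Small heat shock proteins hold unfolded chains without ATP. Each compartment has its own set: Hspa8 and the stress-inducible Hspa1a and Hspa1b in the cytosol, Hspa5 (BiP) and Hsp90b1 (GRP94) in the endoplasmic reticulum, and Hspa9 (mortalin), Hspd1 (Hsp60) and Hspe1 (Hsp10) in mitochondria. Neurons, with long axons and high secretory and synaptic traffic, express many of these genes without stress.

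Promoter sequence was available in RefSeq (GRCm38.p6) for 60 of the 89 members, as 250 bases before to 50 bases after the start site. The heat shock element and the endoplasmic reticulum stress element were searched on both strands, a choice made after expression values had been seen. Other stress elements were not searched. The heat shock element, searched as GAA, 2 bases of any kind, TTC, 2 bases and GAA, was present in 4 members (Dnajb6, Hspd1, Hspe1 and Hsph1), 6.67% of members with a promoter against 0.662% of all 27025 genes. The endoplasmic reticulum stress element, searched as CCAAT, 9 bases of any kind and CCACG, was present in 3 members (Dnajc3, Hsp90b1 and Hspa5), 5% against 0.137%. A match describes the letters only. Only exact matches were counted, so a member with no match may still carry a looser form of the element. No heat shock element match was found for Hspa1a, Hspa1b, Dnajb1 or Hspb1. The sites are shown because results below turn on these members, and capitals mark the matched letters. Hspd1 and Hspe1 share 1 site, read here on each gene's strand, in which 2 matches overlap (chr1:55088053-55088082, minus strand for Hspd1). The others lie at chr2:34772020-34772049 (Hspa5, plus strand), chr14:118937822-118937851 (Dnajc3, plus strand) and chr10:86705510-86705694 (Hsp90b1, minus strand, with 2 matches, the second in reverse orientation).
Hspd1: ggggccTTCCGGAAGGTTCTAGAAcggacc
Hspe1: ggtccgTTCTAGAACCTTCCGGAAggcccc
Hspa5: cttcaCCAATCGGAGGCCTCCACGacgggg
Dnajc3: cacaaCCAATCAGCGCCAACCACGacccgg
Hsp90b1: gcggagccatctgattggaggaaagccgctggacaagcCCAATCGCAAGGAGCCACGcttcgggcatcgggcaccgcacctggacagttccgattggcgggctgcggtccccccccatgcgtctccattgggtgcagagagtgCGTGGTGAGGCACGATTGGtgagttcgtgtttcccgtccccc

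Several members have near-identical copies elsewhere in the genome. Stretches of 100 bases of a coding exon, beside the matching bases of the copy, show how little a read has to tell them apart. Each stretch was picked for the most differing bases, up to a set limit, among ungapped windows with identical ends, so it is not a typical one. Capitals mark the bases that differ within a pair: 1 base between Hspa8 (chr9:40801947-40802046, plus strand) and its processed pseudogene Gm15459 (chr5:5783432-5783531, minus strand), 3 bases between Hspb1 (chr5:135889320-135889419, plus strand) and Hsp25-ps1 (chr13:45078509-45078608, minus strand), and 2 bases between Hspa1a (chr17:34970500-34970599, minus strand) and Hspa1b (chr17:34957582-34957681, minus strand).
Hspa8: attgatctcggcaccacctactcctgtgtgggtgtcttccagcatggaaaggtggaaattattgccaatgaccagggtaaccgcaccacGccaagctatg
Gm15459: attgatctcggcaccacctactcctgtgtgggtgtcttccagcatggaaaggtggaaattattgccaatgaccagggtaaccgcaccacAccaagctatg
Hspb1: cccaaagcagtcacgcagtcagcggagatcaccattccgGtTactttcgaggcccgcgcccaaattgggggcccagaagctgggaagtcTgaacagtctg
Hsp25-ps1: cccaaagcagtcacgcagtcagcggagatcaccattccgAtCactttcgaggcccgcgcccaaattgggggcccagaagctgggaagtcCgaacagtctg
Hspa1a: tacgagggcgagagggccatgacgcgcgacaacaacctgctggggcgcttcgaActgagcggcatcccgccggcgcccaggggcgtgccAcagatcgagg
Hspa1b: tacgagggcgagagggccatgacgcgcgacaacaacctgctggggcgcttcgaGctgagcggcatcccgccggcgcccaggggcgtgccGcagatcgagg

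Levels are FPKM, fragments scaled to the length of the transcript and the depth of the library. Depth was estimated by taking the most frequent product of value and length in genes of 1 exon as the step of 1 fragment. The estimate was 17400000 fragments in responder 1 and up to 38700000 in nonresponder 4. It is rough, because whole reads were not recovered. Sensory neuron markers were present in every mouse (9 of 9 tested, summed level 1759.6 to 3549.9 FPKM in responders and 2013 to 3342 in nonresponders, none at 0). A pair of libraries stood apart in a principal component analysis of all genes. Nonresponder 4 lay at 72.7 on the first component (28% of variance) and had the highest summed neutrophil and skeletal muscle markers. Responder 1 lay at 69.7 on the second (18.7%), and its pituitary markers (Gh, Prl, Pomc, Cga and Lhb) summed to 77394 FPKM against 26.7 to 6752 in the other mice. Pituitary transcripts were not confined to that mouse: Gh was also at 5578 FPKM in responder 2 and 1363 in responder 3, all 5 pituitary markers were higher in responders (median log2 fold change 3.16) and 4 had an unadjusted p under 0.05. The pituitary sums were 358 to 77394 FPKM in responders and 26.7 to 1053 in nonresponders, and none of the 5 was at 0.

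No chaperone gene differed between responders and nonresponders past the adjusted threshold with all 12 mice, and most fold changes were small. Of the 89 members, 66 reached 1 FPKM in at least 3 mice and were tested by limma on log2(FPKM + 1) with sex as a covariate. None of the 66 passed an adjusted p of 0.05 (smallest limma adjusted p = 0.339), where 3 of 14203 genes, 0.0211%, did so in the whole table. At an unadjusted p under 0.05 there were 4 members: Hspa4l higher and Hspb2, Hspd1 and Dnajc19 lower in responders. That is 6.06% of the tested members, against 7.4% of all genes tested (3.23% higher and 4.17% lower), so the share was near the background. The median log2 fold change of the tested members was 0.02, against 0 for all genes, with 38 members above 0 and 28 below. Per-member fold changes ran from -0.94 for Hspd1 to 0.41 for Hsp90b1. Members under the filter, including 4 pseudogene copies (Hspd1-ps1, Hspd1-ps2, Hspe1-ps1 and Hspe1-ps4) and Dnajc5g that were listed at 0 in all 12 mice, entered no test.

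**Figure D1:**
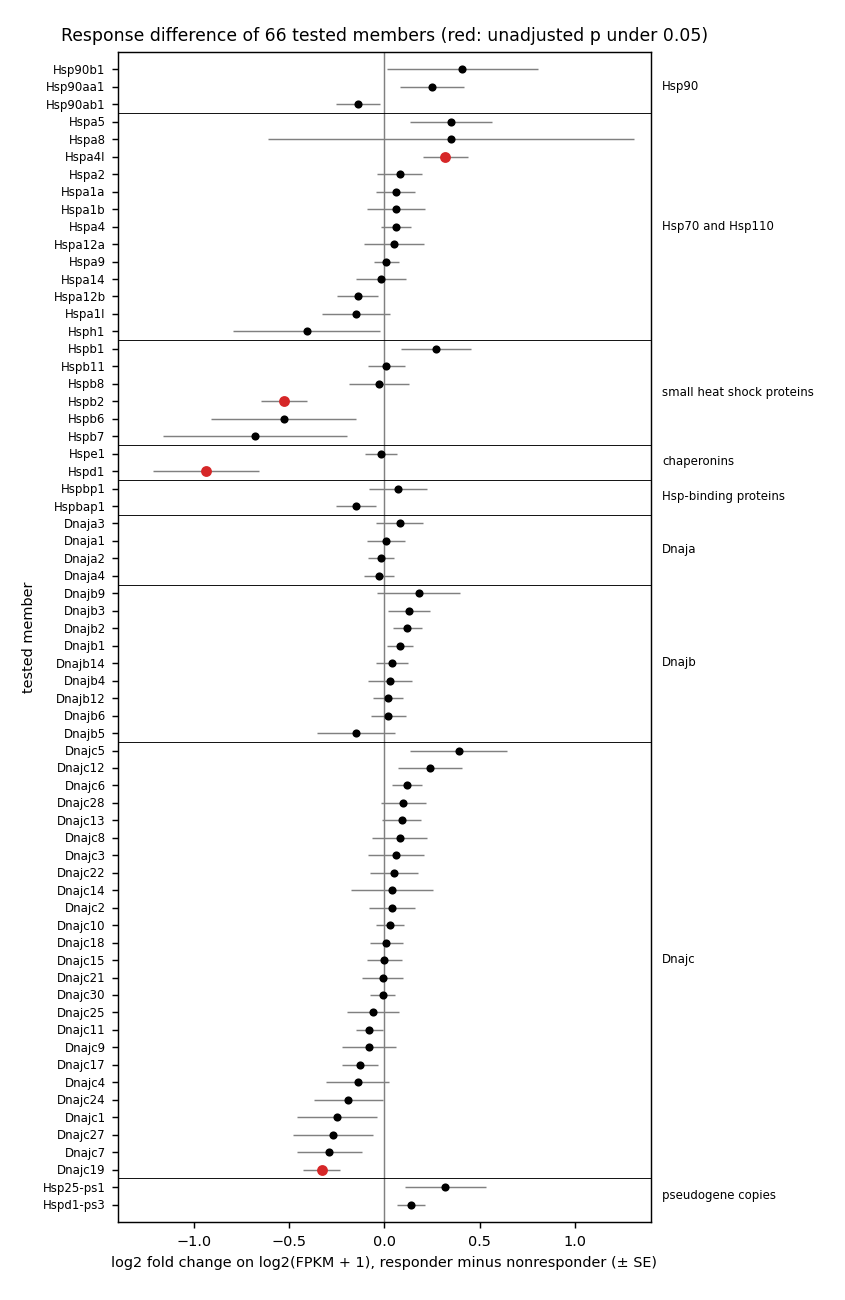
The horizontal axis gives the log2 fold change on log2(FPKM + 1), responder minus nonresponder, for the 66 tested members ordered by family on the vertical axis, with bars of 1 SE from limma. Most points lie near 0, and the red points mark Hspa4l, Hspb2, Hspd1 and Dnajc19.

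Hspb2 was the member most clearly separated between the groups. It encodes a small heat shock protein found mainly in muscle, where it pairs with HSPB3, and it lies head to head with Cryab, the alphaB-crystallin gene (Hspb2, ENSMUSG00000038086, chromosome 9 from 50751078 to 50752354, minus strand, GRCm38). Its level in responders was 5.34 FPKM at the lowest, 8.16 at the median and 8.99 at the highest. In nonresponders it was 9.79, 11.6 and 14.5. Every responder therefore lay below every nonresponder, the lowest responder being responder 1. Hspb2 was the 1 member without overlap, where 0.296% of all genes tested were separated in this direction, 0.253% in the other and 0.549% in either. The means were 7.85 ± 1.36 and 11.7 ± 1.66 FPKM (SD, n = 6 each), a log2 fold change of -0.53 (SE 0.122, limma unadjusted p = 0.0011, adjusted p = 0.339). It was -0.53 within males, -0.53 within females and -0.44 without responder 1, and lay between -0.59 and -0.43 under all 27 alternative settings, at an unadjusted p under 0.05 in each and at adjusted p values of 0.158 to 0.62.

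Hspb2 and Cryab overlap on opposite strands, and 252 bases of their transcripts are identical. The sources used here do not say whether the deposited values are stranded, so reads of the overlap cannot be told apart. Cryab, a small heat shock protein abundant in muscle, lens and glia, was at 116 ± 26.9 FPKM against 131 ± 21.1 in nonresponders (log2 fold change -0.20, limma adjusted p = 0.765), and its groups overlapped. Markers of myelinating Schwann cells moved with this result: 5 of 5 were lower in responders and 4 had an unadjusted p under 0.05, with summed levels of 2221 to 4249 FPKM in responders and 4093 to 6073 in nonresponders and none at 0. Skeletal muscle markers were also lower, 8 of 8, but with sums that overlapped widely (8.98 to 367 FPKM against 27.1 to 1675, Myh4 being listed at 0 in 5 mice). The part of either cell type in the Hspb2 difference was not tested, and in bulk tissue fewer cells of a type cannot be told apart from less RNA per cell.

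Hspd1, the mitochondrial Hsp60 chaperonin, had the largest fold change of the group and rested on 5 of the 6 responders. Responders 1 to 6 stood at 7.82, 5.10, 9.81, 9.16, 7.25 and 24.6 FPKM. Nonresponders 1 to 6 stood at 19.8, 19.4, 20.2, 18.6, 15.8 and 19.8 FPKM. Thus 5 responders lay below all nonresponders, and responder 6, a male, lay above all of them. The log2 fold change was -0.94 (SE 0.28, limma unadjusted p = 0.00629, adjusted p = 0.504). Without responder 6 it was -1.22 (SE 0.122, limma adjusted p = 0.00629) with no overlap, and this was the only setting of 27 in which any member passed the adjusted threshold in the response comparison. That mouse was left out as 1 of 12 in turn, and the labels give no reason to doubt it. With mice averaged by the number that opens their description, which leaves 7 values, the fold change was -0.84 (limma unadjusted p = 0.0781). Within females alone the fold change was -1.11 and within males -0.76 (limma adjusted p = 0.707 within females).

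Hspe1, the Hsp10 lid of the same chaperonin, did not show this pattern. It is transcribed away from Hspd1 out of the shared promoter region printed above (Hspd1, ENSMUSG00000025980, chromosome 1 from 55077835 to 55088243, minus strand, and Hspe1, ENSMUSG00000073676, from 55088132 to 55091307, plus strand), and their spans overlap. Hspe1 ranged from 64.3 to 85.5 FPKM, at 75.9 ± 8.11 in responders and 76.6 ± 3.3 in nonresponders (log2 fold change -0.02, SE 0.0848, limma adjusted p = 0.966). In responder 6 Hspe1 stood at 71.6 FPKM, within the range of the other mice. The processed copy Hspd1-ps3, which matches Hspd1 at 99% over 1722 bases, was at 1.12 ± 0.184 FPKM in responders and 0.918 ± 0.147 in nonresponders, a difference in the other direction (0.14, limma unadjusted p = 0.0672). Gene and copy together gave -0.85 (limma adjusted p = 0.512), and the gene held 85.2% to 89.8% of this sum in responders 1 to 5 against 95% to 96.1% in nonresponders and 95.8% in responder 6.

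Dnajc19 and Hspa4l differed less and with overlap. Dnajc19, a J protein of the mitochondrial inner membrane, was at 7.16, 8.25 and 11.4 FPKM (lowest, median, highest) in responders and 8.76, 11.5 and 12.6 in nonresponders. The means were 8.6 ± 1.5 and 11.1 ± 1.47 FPKM, a log2 fold change of -0.33 (SE 0.0983, limma unadjusted p = 0.00587, adjusted p = 0.491). Responder 2 was the responder inside the nonresponder range at 11.4 FPKM, and responder 3 just entered it at 8.79. Averaged by description number Dnajc19 gave -0.29 (limma unadjusted p = 0.0753). Dnajc19 overlaps Fxr1 on the opposite strand, whose values fell in separate bands, from 8.56 to 12.7 FPKM in 6 mice and from 31.4 to 34.8 in 6 others, each band with mice of both groups. Hspa4l, an Hsp110-type exchange factor, was at 23.7, 27 and 32.5 FPKM in responders and 16.3, 22 and 25.4 in nonresponders. Its log2 fold change was 0.32 (SE 0.118, limma unadjusted p = 0.0217, adjusted p = 0.602). It was 0.19 without responder 1 and nonresponder 4, the highest and the lowest mouse (limma adjusted p = 0.616).

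**Figure D2:**
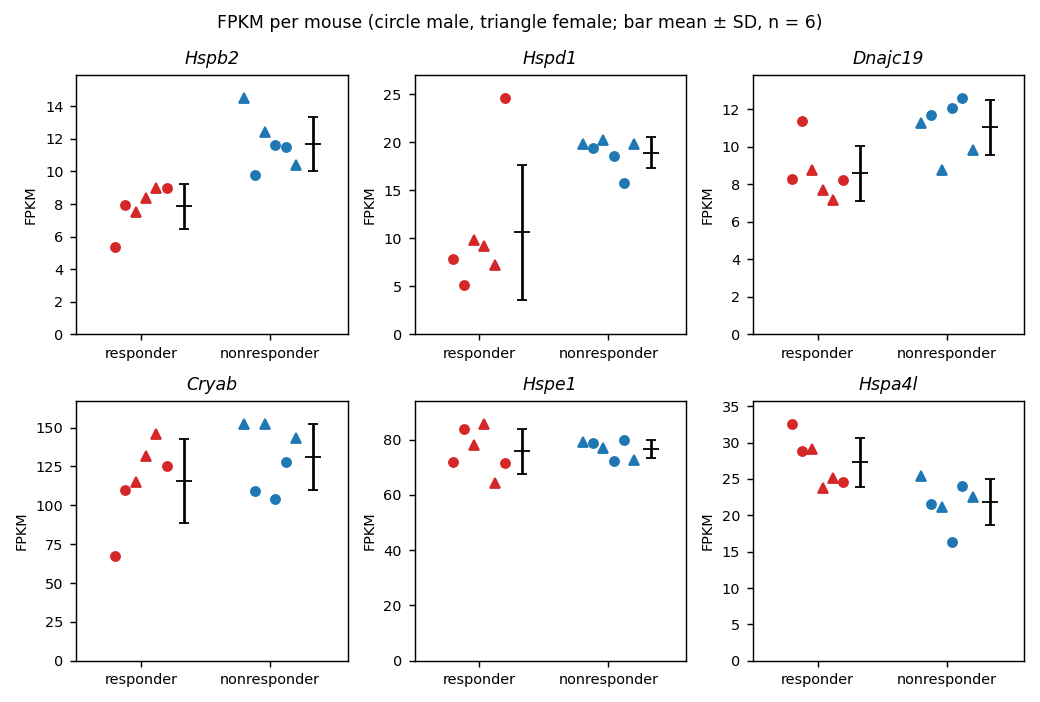
Each panel gives FPKM on the vertical axis for 6 responders (red) and 6 nonresponders (blue), circles for males and triangles for females, with the mean and SD beside them. Hspb2 shows no overlap, Hspd1 has 1 high responder at 24.6 FPKM, Hspe1 and Cryab overlap throughout, and Dnajc19 and Hspa4l overlap in part. For Dnajc19, responder 2 at 11.4 FPKM is close to the nonresponder median of 11.5.

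Among the Hsp90 genes, Hsp90ab1, the constitutive cytosolic form, had the highest mean level listed at the gene itself. It was at 36.4, 46.4 and 55.1 FPKM in responders and 44.8, 50.4 and 57.4 in nonresponders (log2 fold change -0.14, limma adjusted p = 0.79). Hsp90aa1, the stress-inducible cytosolic form, was at 9.28, 15.7 and 16.7 FPKM in responders and 9.28, 11.3 and 14.9 in nonresponders (0.25, limma adjusted p = 0.759). With its copies, described below, Hsp90aa1 summed to 53.7 ± 12.4 FPKM in responders and 43.5 ± 5 in nonresponders. Hsp90ab1 had means of 47 ± 7.45 and 51.4 ± 4.61 FPKM. Responder 1 and nonresponder 4 had the lowest Hsp90aa1 values, and without responder 1 the fold change was 0.36 (limma unadjusted p = 0.026, adjusted p = 0.526). Trap1, the mitochondrial Hsp90, which is outside the symbol rule, was at 41.8 ± 4.76 and 40.7 ± 2.8 FPKM (0.03, limma adjusted p = 0.951).

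The Hsp70 family ranged widely in level but little between the groups. Fold changes lay above 0 in 9 and below 0 in 4 of 13 tested genes (median 0.06). Hspa9 was the steadiest of those named, at 85.9 to 97.8 FPKM in all mice. Hspa12a, a distant family member strong in neurons, had the highest mean listed at the gene itself (66.3 to 129 FPKM, log2 fold change 0.05). Hspa8 with its copies, given below, summed higher. Hspa4, an exchange factor, had 65.2 ± 4.69 and 62.5 ± 4.88 FPKM (0.06), and Hspa2, best known from testis, at 9.95 ± 1.77 and 9.29 ± 1.17 (0.08). Hspa12b, an endothelial relative of Hspa12a, gave -0.14 (limma adjusted p = 0.772). Hspa13, a microsomal form, was at 0.128 to 0.43 FPKM and was not tested. Hsph1, the inducible Hsp110, varied more, from 7.57 to 28.2 FPKM in responders and 7.92 to 30.6 in nonresponders (-0.41, SE 0.388, limma adjusted p = 0.813), and the fold change was -0.63 without responder 1.

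The classical inducible Hsp70 genes were low in both groups. Hspa1a was at 4.23, 4.99 and 7.76 FPKM in responders and 3.77, 5.29 and 5.96 in nonresponders, and Hspa1b at 5.32, 7.06 and 11.3 against 5.53, 7.48 and 8.2. Their fold changes were 0.06 and 0.06 (limma adjusted p = 0.906 and 0.946), and responder 5 was highest for both. The genes match at 99.2% over 2201 bases, so the split between them is uncertain, and their sum gave 0.06 as well. Immediate early genes, which answer to handling and injury, summed to 36.7 to 63.3 FPKM in responders and 38.9 to 69.4 in nonresponders (7 of 10 tested, none at an unadjusted p under 0.05).

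Hspa8, the constitutive cytosolic Hsp70, had the widest spread of the group among members of 5 FPKM or more. It was at 7.60, 62.5 and 279 FPKM in responders and 10.4, 19.7 and 257 in nonresponders, with responder 4 and nonresponder 2 at the top. The highest mouse was 36.8 times the lowest, and the fold change of 0.35 (SE 0.96, limma adjusted p = 0.946) turned to -0.13 without responder 4 and was 1.10 without nonresponder 2. A total of 8 processed pseudogenes match Hspa8, and the deposited table gave them 166 to 350.1 FPKM in sum, led by Gm15459, 99.7% identical over 1941 bases. Only 3.49% to 48.1% of the joint value was listed at Hspa8 itself. Gene and copies together ran from 177 to 617 FPKM, with a log2 fold change of 0.32 (SE 0.287, limma adjusted p = 0.804), so that the sum varied less than the gene but kept the same high mice. A spread of at least 5 times was found in 3 of 49 members with a mean of at least 5 FPKM, 6.12%, against 8.24% of 8031 such genes in the table.

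Hsp90aa1 and Hspb1 were split among copies in steadier proportions. The table listed 22.2% to 32.4% of the joint Hsp90aa1 value at the gene and the rest at 3 pseudogenes, which together held 25.1 to 52.3 FPKM. For Hspb1 the gene held 81.2% to 84.8%, with Hsp25-ps1 at 18.8 to 57.1 FPKM. The near-constant Hspb1 share across mice means that gene and copy moved in step, and the copy is no independent measure. Dnaja1, an abundant cytosolic J protein, has 3 such copies and held 82.6% to 85.9%.

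**Figure D3:**
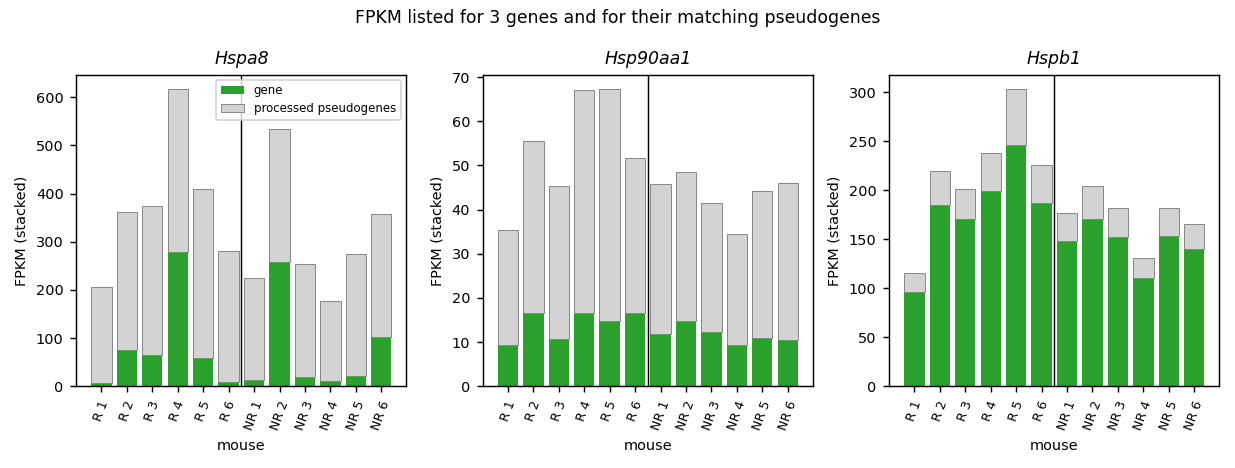
Stacked bars give FPKM per mouse for Hspa8, Hsp90aa1 and Hspb1 (green) and for their matching processed pseudogenes (grey), responders left of the line. The green share of Hspa8 changes from mouse to mouse, between 3.49% and 48.1%, while that of Hspb1 stays between 81.2% and 84.8%.

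Among the small heat shock proteins, Hspb1 (Hsp25 in the mouse) had the second highest mean FPKM of all members after Dnaja1, with copies left out. It is strongly expressed in sensory neurons and stabilises actin and intermediate filaments. Hspb1 was at 96.8, 186 and 246 FPKM in responders and 111, 149.9 and 171 in nonresponders. The fold change of 0.27 (SE 0.185, limma adjusted p = 0.766) was 0.43 without responder 1, the lowest of all mice (limma unadjusted p = 0.0069, adjusted p = 0.505). Hsp25-ps1 behaved alike, at 0.32, and 0.48 without responder 1. Hspb8, a partner of the cochaperone Bag3 in selective autophagy, was at 124 ± 27.9 and 124 ± 12.3 FPKM (-0.03), again with responder 1 lowest at 71.8. Hspb11, a component of the ciliary transport machinery, was at 8.83 ± 0.768 and 8.81 ± 1.33 FPKM (0.01).

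Hspb6 and Hspb7, small heat shock proteins of smooth, cardiac and skeletal muscle, were high in the same 4 mice, 3 of them nonresponders. Hspb7 was at 0.104, 0.693 and 1.79 FPKM in responders and 0.26, 1.25 and 9.1 in nonresponders (log2 fold change -0.68, limma adjusted p = 0.766, and -0.28 without nonresponder 4). Its 4 highest mice were nonresponder 4 (9.1 FPKM), nonresponder 3 (3.72), nonresponder 1 (1.85) and responder 2 (1.79). The same 4 mice, in the same order, had the highest summed skeletal muscle markers, 1675, 1437, 402 and 367 FPKM. Smooth muscle and pericyte markers were 5 of 5 lower in responders (median -0.6, 1 at an unadjusted p under 0.05, none at 0), with sums of 15.5 to 40.6 FPKM in responders and 16.4 to 111 in nonresponders, highest in nonresponders 4, 3 and 1 (111, 92.9 and 54.4). Hspb6 was at 30.4 FPKM in nonresponder 3, 16.5 in nonresponder 4, 15 in nonresponder 1 and 13.8 in responder 2, and at 5.16 to 9.29 in the others. Its fold change of -0.53 (limma adjusted p = 0.766) was -0.24 without nonresponder 3. The part of either kind of muscle in the dissected tissue was not tested. Hspb3, the partner of Hspb2, was at 0.131 to 1.56 FPKM and was not tested.

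Of the members that work in the endoplasmic reticulum, Hspa5, Hsp90b1, Dnajb9, Dnajc3 and Dnajc10 had their highest value in responder 1, the mouse with the highest pituitary markers, and were picked out after their values were seen. Hspa5 was at 147 FPKM there and at 60.7 to 81.3 in the other responders, against 45.6, 69.1 and 80 (lowest, median, highest) in nonresponders. Hsp90b1 was at 13.6 FPKM there, with 1.51 to 6.32 in the other responders and 1.68 to 4.42 in nonresponders. It overlaps the pseudogene 1810014B01Rik on the opposite strand, with 273 identical bases, so the split between them is uncertain. That pseudogene was lowest in nonresponder 6 (4.24 FPKM) and highest in responder 1 (11.2 FPKM). Dnajb9 (ERdj4), which helps dispose of misfolded proteins, was at 48.8 FPKM there and at 17.2 to 23.5 in all other mice. Dnajc3 (p58IPK), a cofactor of Hspa5, was at 34.9 FPKM there and at 18.2 to 23.9 elsewhere. Other J proteins of this compartment did not share the pattern. Dnajb14 and Dnajc18 had their lowest value in responder 1 (12.3 and 16.2 FPKM), and Dnajb12 was at 20.9 FPKM, within a range of 17 to 22.2. Of all genes tested, 24.4% were highest in responder 1.

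Hspa5, Hsp90b1 and Dnajc3 have the stress element printed above, and no match was found for Dnajb9 or Dnajc10. Members and element were both chosen after the values were seen, so their overlap is no evidence of a link. None of these members passed the response test. Log2 fold changes with and without responder 1 were 0.35 and 0.18 for Hspa5, 0.41 and 0.07 for Hsp90b1, 0.18 and -0.04 for Dnajb9, and 0.06 and -0.09 for Dnajc3 (limma adjusted p = 0.74, 0.815, 0.861 and 0.941 with all mice). Dnajc10 (ERdj5), a disulfide reductase, was at 39 FPKM in responder 1 and 30.5 to 35.1 elsewhere. Dnajc1 (ERdj1) was at 5.32 FPKM there but higher in nonresponder 3 (7.04) and nonresponder 6 (5.84), with a fold change of -0.25 (-0.40 without responder 1). Dnajb11 (ERdj3) was listed at 0.00698 to 1.12 FPKM, highest in nonresponder 6, and was not tested. Over the wider list of folding and unfolded protein response genes, 17 of 17 were tested, 13 lay above 0 and 4 below, none had an unadjusted p under 0.05, and responder 1 summed to 731 FPKM against 445 to 489.8 in the other mice. The part of pituitary tissue in these values was not tested.

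**Figure D4:**
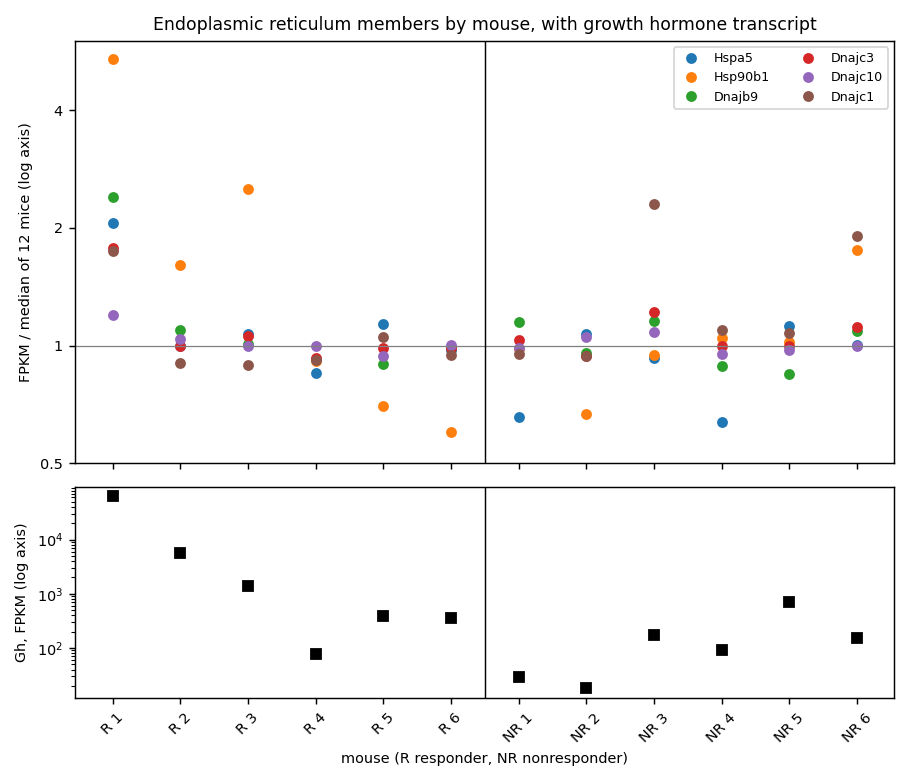
The upper panel gives FPKM divided by the median of the 12 mice (log axis) for 6 members of the endoplasmic reticulum, a set chosen after the values were seen, and the lower panel gives FPKM of Gh, the growth hormone gene (log axis). In responder 1 all 6 members lie above the line at 1 and Gh reaches 63429 FPKM. Dnajb12, Dnajb14 and Dnajc18 are not shown.

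Across all 66 tested members responder 1 was the highest mouse for 16 and the lowest for 17, and nonresponder 4 the highest for 8 and the lowest for 12. For comparison with the whole table, responder 1 was highest for 24.2% of members and 24.4% of all genes tested and lowest for 25.8% and 19.9%, and nonresponder 4 highest for 12.1% and 16% and lowest for 18.2% and 16.4%. The members low in responder 1 included Hspa12a at 66.3 FPKM against 107 to 129 in the other responders, Hspb1 and Hspb8. Hspbp1, a nucleotide exchange factor, was at 30.1 against 49.5 to 59.1. That mouse had the lowest summed neuron markers (1759.6 FPKM), but not every marker was low. Avil was highest there (30.3 FPKM), and Isl1 was at 1.71 FPKM, within a range of 1.09 to 2.7. The part of neurons in these values was not tested. Hspbp1 as a whole gave 0.07 and Hspbap1, which binds Hspb1, -0.15 (limma adjusted p = 0.926 and 0.766). Without responder 1 there were 7 members at an unadjusted p under 0.05 in place of 4, Hspb1, Hsp25-ps1 and Hsp90aa1 being added, all higher in responders. This was 10.6% of members against 9.09% of all genes in that setting. Hsp25-ps1 is the copy that moved in step with Hspb1, so that pair is not independent. Among members that stayed above an unadjusted p of 0.05, leaving out responder 1 moved the fold change from -0.03 to 0.11 for Hspb8, from 0.07 to 0.20 for Hspbp1, from 0.05 to 0.17 for Hspa12a, from -0.14 to -0.05 for Hspa12b and from 0.35 to 0.76 for Hspa8. It moved Hspa1b from 0.06 to 0.14, Hspa2 from 0.08 to -0.01 and Dnajb6 from 0.02 to -0.04. Leaving out nonresponder 4 moved Hspa5 from 0.35 to 0.23, Dnaja1 from 0.01 to -0.06, Dnajb3 from 0.13 to 0.20 and Dnajc8 from 0.08 to 0.16.

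**Figure D5:**
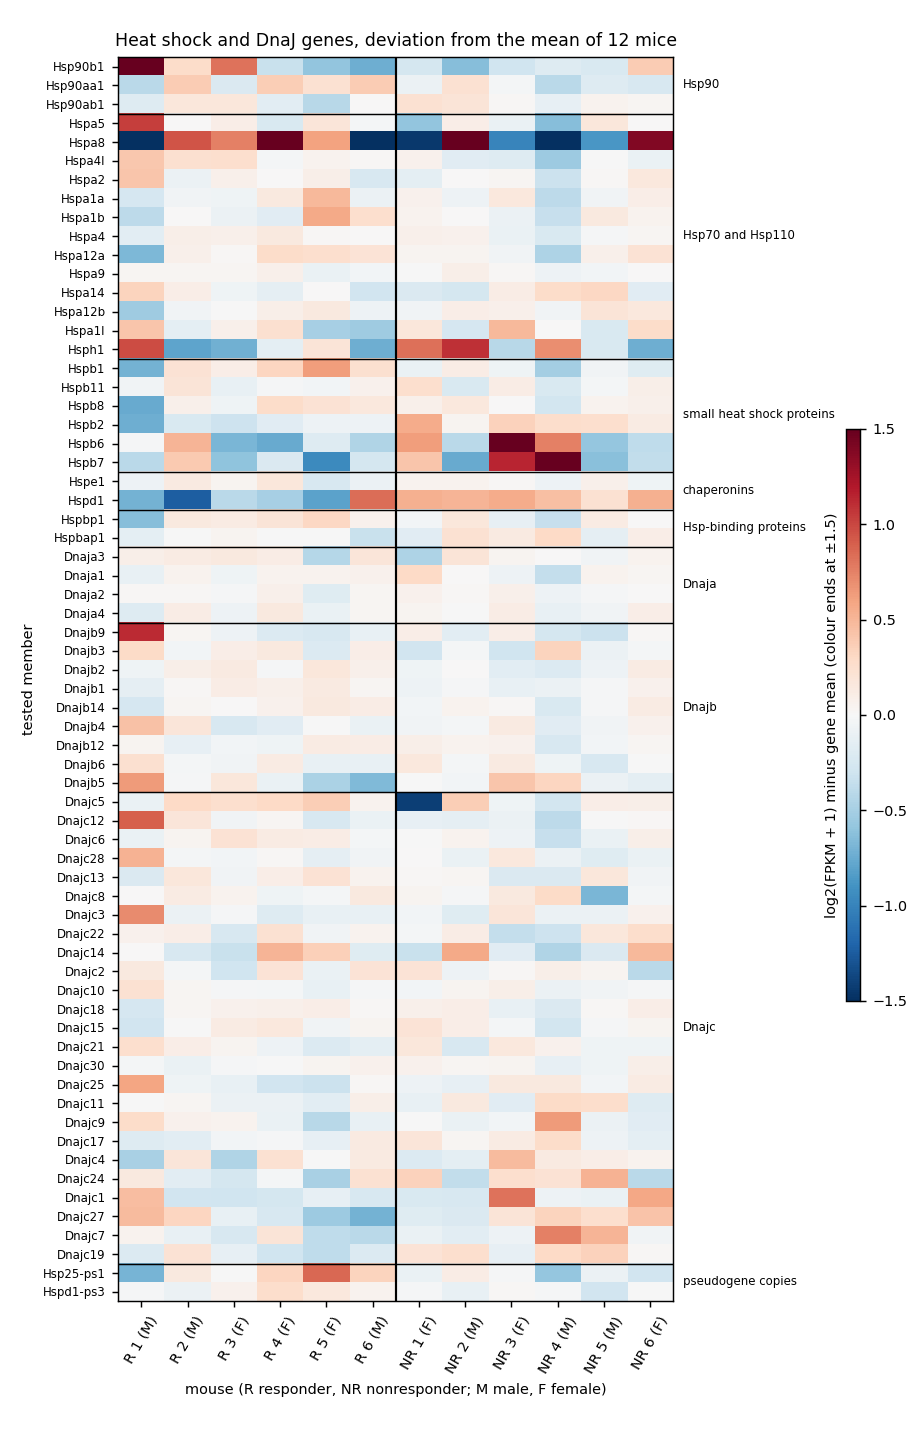
Colours give log2(FPKM + 1) minus the gene's mean over 12 mice for the 66 tested members (rows, by family) and 12 mice (columns), ending at 1.5 in either direction. The responder 1 column holds 16 of the row maxima and 17 of the minima, and in the Hspb2 row every responder lies below every nonresponder.

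The J-domain proteins, which bring clients to Hsp70, gave small fold changes with few exceptions. The 4 Dnaja genes, all general cochaperones, had fold changes from -0.03 to 0.08. By values listed at the gene itself, Dnaja1 had the highest mean of the whole group. It was at 184 ± 9.44 FPKM in responders and 184 ± 27.1 in nonresponders (0.01, limma adjusted p = 0.982). With copies added, Hspa8 was higher (375 ± 139.5 and 303 ± 128 FPKM) than Dnaja1 (218 ± 13.2 and 217 ± 30.8), so this ranking depends on how reads were assigned. Dnaja2 was at 61.5 ± 3.69 and 62.4 ± 2.48 FPKM, and Dnaja4 at 27.7 ± 2.54 and 28.2 ± 1.75. Dnaja3, the mitochondrial form, was at 15.3 to 23.8 and 14.8 to 23.9 FPKM (0.08), its low values being responder 5 and nonresponder 1.

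Of 9 tested Dnajb genes, 8 lay above 0 and 1 below (median 0.04), none at an unadjusted p under 0.05. Dnajb6, which suppresses aggregation of polyglutamine proteins, had the highest mean, 43.9 ± 4.58 and 43.4 ± 4.31 FPKM (0.02). Dnajb2, a neuronal cochaperone, was at 39.3 ± 2.47 and 36 ± 3.05 FPKM (0.12, limma adjusted p = 0.744). Dnajb1, the main inducible Hsp40, was at 19.1 ± 1.35 and 18 ± 0.84 FPKM (0.08, limma adjusted p = 0.79), and Dnajb3 gave 0.13 at levels of 1.12 to 2.3 FPKM. Dnajb4 and Dnajb5 gave 0.03 and -0.15, with responder 1 highest for both at 3.15 and 10.7 FPKM, and -0.05 and -0.30 without it.

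The Dnajc genes, a varied set that share only the J domain, split into 12 above 0 and 13 below among 25 tested (median 0). Dnajc8, a splicing-associated nuclear protein, had the highest mean, 64 ± 3.67 and 61.6 ± 12.7 FPKM, nonresponder 5 being low at 38.3. Dnajc5, the synaptic vesicle cysteine string protein, was at 5.09, 6.86 and 7.4 FPKM in responders and 1.44, 5.57 and 7.41 in nonresponders. Its fold change of 0.39 (SE 0.255, limma adjusted p = 0.75) was 0.14 without nonresponder 1, the low mouse. Dnajc6, neuronal auxilin, which uncoats clathrin vesicles, was steady at 30.9 ± 2.49 and 28.4 ± 2.98 FPKM (0.12). Dnajc7 was at 11.2 ± 2.09 and 14.3 ± 4.38 FPKM (-0.29, limma adjusted p = 0.733), with nonresponders 4 and 5 high at 21.5 and 18 FPKM, and -0.18 without nonresponder 4.

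The other genes of the chaperone pathway gave no call either: no gene of the 8 pathway lists passed the adjusted threshold. Among 4 genes of heat shock factor control, 3 lay above 0 and 1 below. Hsf1, the main heat shock factor, was at 10.2 ± 1.25 and 10.5 ± 0.953 FPKM (-0.04, limma adjusted p = 0.922). Of 16 tested Hsp90 cochaperones, 14 lay above 0 and 2 below (median 0.07), and Chordc1 had the only unadjusted p under 0.05 (19.4 ± 0.832 and 16.4 ± 1.91 FPKM, 0.23, limma adjusted p = 0.602). Of 13 Hsp70 exchange factors and partners, 10 lay above 0 and 3 below (median 0.09), Bag6 having the smallest p (0.17, limma adjusted p = 0.688). The cytosolic chaperonin CCT gave 5 above and 3 below among 8 subunits (0.04), mitochondrial folding genes 4 and 3 among 7 (0.03), and other J-domain genes 2 and 1 among 3 (0.01). Over all genes tested the median was 0, and no test was made of these lists.

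Females and males were compared next, with the response group as a covariate. No member passed the adjusted threshold (smallest limma adjusted p = 0.864), where 8 genes, 0.0563%, did in the whole table. At an unadjusted p under 0.05 there were 4 members, 6.06% against 4.53% of all genes, with 2 higher in females (2.01% of all genes were) and 2 lower (2.51%). Hspa1a was at 5.98 ± 0.941 FPKM in females and 4.64 ± 0.519 in males (log2 fold change 0.30). Its split from the near-identical Hspa1b is uncertain, and Hspa1b was at 7.76 ± 1.81 and 7.1 ± 1.43 FPKM (0.11, limma unadjusted p = 0.487). Hspd1-ps3 was at 1.13 ± 0.164 and 0.909 ± 0.153 (0.16). Dnajc11, a protein of mitochondrial cristae, was at 1.71 ± 0.0791 and 2.28 ± 0.273 (-0.27), and Dnajc19 at 8.93 ± 1.5 and 10.7 ± 1.96 (-0.24). The limma adjusted p was 0.864 for each of the 4 members at an unadjusted p under 0.05.

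Whether the response difference depended on sex was tested by the interaction. No member and no other gene passed (0 of 14203, 0%), and 2 members, 3.03%, had an unadjusted p under 0.05 against 5.01% of all genes, both of them negative (2.62% of all genes were, and 2.39% positive). Dnajb9 gave 0.60 within males and -0.25 within females (interaction -0.85, limma unadjusted p = 0.0435, adjusted p = 0.836). Its male responders stood at 48.8 (responder 1), 22.4 and 20.2 FPKM, above the male nonresponders at 17.2 to 19.5. Its female responders, at 18.3 to 20.6 FPKM, lay below the female nonresponders at 22.2 to 23.5. How many of all genes tested show such a pattern was not counted. Hspb11 gave 0.23 within males and -0.21 within females (interaction -0.45, limma unadjusted p = 0.0146, adjusted p = 0.836). No member passed the adjusted threshold within males or within females, where 0.0141% and 0.00704% of all genes did. Within males 5 members, 7.58%, had an unadjusted p under 0.05 against 6.78% of all genes: Hspa4l, Dnajb9 and Dnajc12 higher (3.11% of all genes) and Hspb2 and Dnajc19 lower (3.67%). Within females there were 5 against 6.81%: Dnajc5 higher (3.13%) and Hspb2, Hspb6, Hspd1 and Dnajc1 lower (3.68%). Hspb2 was the member found in both sexes.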

How the data were processed

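Messenger RNA from trigeminal ganglia of 12 mice had been sequenced as paired-end reads after poly A selection, per the labels' protocols. A single table was deposited by the authors, with a column for each mouse and a row for each Ensembl gene. Its values were taken as FPKM from their range and steps, since the deposited header names no unit. STAR 2.6.0a and StringTie 1.3.5 with GRCm38 and mm10 are named in the submitters' processing notes, which are silent on the annotation, settings and strand. StringTie divides reads among overlapping or near-identical genes, which bears on Hspa8, Hsp90aa1, Hsp90b1, Hspb1, Hspa1a, Hspb2 and Hspd1, among others. Whole reads were not recovered: in genes of 1 exon, 19.2% to 26.4% of values were whole multiples of the step (tolerance 0.05), where chance gives 10.0%. Read-count intervals were therefore not made. There were 0 columns of other samples and 0 pairs of identical columns.

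Symbols came from GENCODE M21 (51076 of 51341 genes matched). Groups came from the sample titles and sex from the characteristics. A gene entered when 3 or more mice reached 1 FPKM. The test was limma (3.58.1, R 4.3.3) on log2(FPKM + 1) with sex as a covariate, 2-sided, with Benjamini-Hochberg adjustment over all 14203 genes and a threshold of 0.05. Fold changes on this scale understate those of low genes. Sex and the interaction were fitted on the same table, and the fit was tested on simulated data. The log2 change within each sex came from the interaction fit.

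Near-identical copies were found with blastn 2.17.0 (at least 95% identity over at least 200 bases). Promoters came from RefSeq (GRCm38.p6), with matches sought on both strands.

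The members, the gene lists and the rule for named genes were chosen with earlier results of these data known. The rule named a fixed set of well known members, in each family the most abundant member and the 3 with the smallest p, and every member with an unadjusted p under 0.05 in the response, sex or interaction comparison. Dnajc1, Dnajc10, Dnajc12, Dnajc18, Dnajc25, Dnajc28, Dnajc9, Dnajb11, Dnajb12, Dnajb14, Hspb3, Fxr1, 1810014B01Rik and the copies were named after their values were seen. So were the motifs and the sums over copies. A number of unstated meaning opens each sample's description (44, 45, 48 or 49 for responders, 68, 82 or 83 for nonresponders), and its effect cannot be told apart from the response.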

Additional observations from a re-analysis of the deposited data

Results flagged for a closer look

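In 17 of 132 combinations of a tested member and a group, 1 mouse stood apart from the other 5 by Dixon's ratio, the gap to the nearest mouse over the whole range of the group. Chance marks about 1 in 20. The members' share, 12.9%, was below that of all genes tested, 17%. Responder 1 was the mouse in 10 of the 17, that is for 15.2% of tested members against 15.6% of all genes tested. It was high for Dnajb9 (ratio 0.864), Dnajc3 (0.854), Dnajc28 (0.819), Dnajc1 (0.814), Hspa5 (0.763), Dnajc12 (0.712) and Dnajc25 (0.703), and low for Dnajc18 (0.722), Hspbp1 (0.671) and Hspa12a (0.641). Dnajc12, a cytosolic cochaperone of the aromatic amino acid hydroxylases, was at 7.87 FPKM in that mouse and 2.62 to 4.42 in the others. Its log2 fold change was 0.24, and 0.09 without that mouse. Dnajc25 and Dnajc28 were at 2.37 and 4.14 FPKM there, and Dnajc18 at 16.2 FPKM, its lowest value.

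Among the other responders, responder 6 was high for Hspd1 (0.759, 24.6 FPKM), responder 4 was high for Hspa8 (0.75, 279 FPKM), and responder 5 was low for Dnaja3 (0.826, 15.3 FPKM) and Dnaja2 (0.642, 54.4 FPKM). Among nonresponders, nonresponder 4 was high for Dnajc9 (0.837, 42.3 FPKM), a histone cochaperone of dividing cells, nonresponder 6 was high for Hsp90b1 (0.651, 4.42 FPKM) and nonresponder 5 was low for Hspd1 (0.644, 15.8 FPKM). The Dnajc9 fold change was -0.08, and 0.03 without nonresponder 4.

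The response difference of Dnajb9 differed between the sexes at an unadjusted p of 0.0435 by the limma interaction (log2 difference -0.85, adjusted p = 0.836). Its male responders all lay above the male nonresponders, and its female responders all below the female nonresponders. The share of all genes with such a pattern was not counted.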

How the results depend on the processing

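In the response comparison, under 27 alternative settings, 1774 member values kept their direction, or changed sign with 1 of the fits within 1 SE of 0, and kept their side of the adjusted threshold, and 1 did not, Hspd1 without responder 6. Leaving out each mouse in turn gave 0 to 1 member at an adjusted p under 0.05, where 2 to 6 of all genes were called. It gave 4 to 7 members at an unadjusted p under 0.05 (7 without responder 1). That is 6.06% to 10.6% of members, against 5.91% to 9.87% of all genes tested. There were 1 to 2 members without overlap between the groups, where 0.716% to 1.58% of all genes had none. Array weights gave 8 members, 12.1%, at an unadjusted p under 0.05, against 11.2% of all genes. Leaving out responder 1 and nonresponder 4 together gave 7, 10.8%, against 8.32%. Both counts include Hspb1 and its copy Hsp25-ps1. With array weights 3 members passed the adjusted threshold in the interaction (Dnajb9 -0.62, Dnajc8 -0.85 and Hspb11 -0.43, limma adjusted p = 0.0498, 0.0485 and 0.0464), as did 508 of all genes, 3.58%. The weights stopped before convergence. Averaging mice by the opening number of their description gave 6 members without overlap on 7 values, where 8.98% of all genes had none, and Hspd1 and Dnajc19 were then above an unadjusted p of 0.05 (limma, 0.0781 and 0.0753). The cause of these shifts was not tested, beyond the smaller number of samples.

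The replicate numbers of the titles did not pair the mice: correlations of same-numbered mice ran from -0.27 to 0.13, and no mouse correlated best with its own number. With the replicate block 4 members, 6.06%, had an unadjusted p under 0.05, against 7.25% of all genes. In that setting 0 members passed the adjusted threshold, and 1 gene of the table was called in place of 3. Responder 1 had the lowest estimated depth (17400000 fragments), a ranking that is not certain because whole reads were not recovered. What depth did to its precision was not tested.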
